A study of Homo sapiens with 9 samples.

Results

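Abundant noncoding RNAs of the nucleus and of ribonucleoprotein particles were followed through RNA sequencing of a chondrocyte line: 9 of the 60671 gene records in the count tables. They were NEAT1, MALAT1, MEG3, KCNQ1OT1, TUG1, NORAD, RN7SL1, RN7SK and RMRP, found in each table by Ensembl identifier. They were chosen as abundant kinds of noncoding RNA with earlier results of these counts known, though not each by its own count. NEAT1 was also chosen by its difference between libraries of one group. The levels of the 9 and the spread of NEAT1 are therefore given as descriptions without a test. Of the 9, 7 passed the filter on low counts and 2, RN7SK and RMRP, were listed at 0 in every library.

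These RNAs act as RNA. NEAT1 is the architectural RNA of paraspeckles, nuclear bodies that hold RNA-binding proteins and edited transcripts, and MALAT1 is enriched in nuclear speckles, where splicing factors gather. MEG3 and KCNQ1OT1 are transcribed from imprinted clusters, the first from the maternal chromosome and the second from the paternal one, where it silences neighbouring genes. TUG1 is a widely expressed long noncoding RNA, and NORAD is a cytoplasmic RNA that binds Pumilio proteins. RN7SL1 encodes 7SL, the RNA scaffold of the signal recognition particle that brings secretory proteins to the endoplasmic reticulum. RN7SK encodes 7SK, which holds the elongation factor P-TEFb inactive, and RMRP encodes the RNA of RNase MRP, which acts in ribosomal RNA processing and is mutated in cartilage-hair hypoplasia.

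C28/I2, the cell line sequenced, derives from human chondrocytes, the cells of cartilage, and is immortalised. The series title links carbonic anhydrase 2 (CA2), an enzyme that interconverts carbon dioxide and bicarbonate, to the metabolism of these cells. There were 3 groups of 3 libraries: Control, Scrambled, and CA2 shRNA, in which a short hairpin RNA targets CA2. The labels do not say what construct the Scrambled cells carried or whether Control cells were transduced, and they give neither a time nor a dose. Libraries are called by group and by the number in their title, as in Control 3. Nothing in the labels says that the numbered libraries were separate cultures, so the p-values rest on a spread between samples that may be technical.

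Totals lay between 16994368 and 34261244 counts, and the 9 RNAs took 0.829 to 1.12% of them, of which RN7SL1 alone took 0.634 to 0.888%. CA2 itself stood at 2.31, 2.00 and 1.94 CPM (counts over the library total on the usual CPM scale, after TMM scaling) in Control. It stood at 1.82, 1.96 and 2.06 in Scrambled and at 1.4, 0.905 and 1.10 in CA2 shRNA, on 15 to 66 counts a library. CA2 shRNA did not overlap the others, as in 32.3% of tested genes against Scrambled and 33% against Control. Of the 14 chondrocyte markers, 6 exceeded 1 CPM on average. SOX9, the transcription factor of the lineage, lay between 81.7 and 105 CPM, COL2A1 between 1.45 and 2.23 and ACAN between 0.402 and 1.17, and COL9A1 had no count. Summed over the chondrocyte markers, CA2 shRNA libraries reached 130 to 132 CPM, Control libraries 111 to 125 and Scrambled libraries 116 to 125, most of it SOX9. SOX9 rose in CA2 shRNA against both other groups (log2 change 0.20 in each, edgeR adjusted p 0.0364 and 0.0381), and COMP, a cartilage matrix protein, fell (-0.86 and -0.83, adjusted p 0.0161 and 0.0215). Over the 9 tested chondrocyte markers 1 rose and 1 fell in each comparison, with a median log2 change of -0.16 against Scrambled and -0.21 against Control. Summed markers of other cell types ranged over 3.02 to 4.22 CPM for immune cells, 3.70 to 4.86 for endothelium, 0.849 to 1.71 for epithelium, 6.10 to 9.37 for neural cells and 3.38 to 7.48 for adipocytes or muscle, with none of their tested genes past the threshold in any comparison. Mitochondrial genes took 4.06% of counts in Control 3 and 4.08% in Scrambled 2, and between 5.55 and 6.86% in the other 7 libraries.

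RN7SL1 is 1 of 3 near-identical copies of the 7SL gene on chromosome 14, which sets what a count of RN7SL1 can mean. In the GENCODE 29 transcripts, RN7SL2 differed from RN7SL1 by 4 substitutions and 1 gap, an identity of 98.3%, and RN7SL3 by 7 substitutions, an identity of 97.7%. Of the 250 stretches of 50 bases in RN7SL1, 63.2% were also in RN7SL2 and 34.4% in RN7SL3, and 100% were in the transcript of at least 1 other gene. The tables gave 1670119 counts to RN7SL1 over the 9 libraries, 5161 to RN7SL3 and 0 to RN7SL2. How reads that fit several copies were treated is not given in the sources used here, so the RN7SL1 count may hold reads of its copies.

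NORAD is shown by its Pumilio elements, the repeated motif through which it binds Pumilio proteins. The letters TGTANATA, 8 bases with any base at N, were the only motif searched. They occurred 15 times in the sense direction of the 5339-base transcript and 1 time on the reverse strand. The first 3 elements and a closely spaced pair are printed with 10 bases on each side, 5′ to 3′ from the GENCODE 29 transcript on GRCh38, in lower case with the motif in capitals and named by the position of its first base in the transcript, which is the minus strand of chromosome 20.
NORAD 761: ggaaggcctgTGTATATAatatgaaaaa
NORAD 1140: ctcactactgTGTATATAgttgacaatg
NORAD 1241: aatcacatttTGTAAATAcctttttgtt
NORAD 1442: tacttatctgTGTATATAgtgtacataa
NORAD 1451: gtgtatatagTGTACATAaaggacagac
Among 5382 other genes with a transcript within 20% of this length, 42.8% held at least 1 match in the sense direction and 0.0372% (2 genes) held as many as NORAD, with a highest count of 16 and a median of 0. A match describes the letters only.

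NEAT1 (ENSG00000245532, GRCh38 chromosome 11, 65422774 to 65445540, plus strand, a single merged exon of 22767 bases) varied more between libraries than any other of these RNAs. Its level was 680, 312.5 and 159 TMM-scaled CPM in Control 1, 2 and 3, 618, 233 and 645 in Scrambled, with 527, 266 and 367 in CA2 shRNA. Control 1, Scrambled 1, Scrambled 3 and CA2 shRNA 1 were the high libraries, Control 3 and Scrambled 2 were the lowest, and the ranges of all 3 groups overlapped. The highest library exceeded the lowest 4.27 times in Control, 2.77 times in Scrambled and 1.98 times in CA2 shRNA, on 4408 to 19077 counts a library. In bulk RNA, a smaller share of cells with NEAT1 and less NEAT1 per cell cannot be told apart. The deposited record also merges the short and long NEAT1 isoforms (8 GENCODE 29 transcripts of 512 to 22743 bases), of which only the long one builds paraspeckles, and the counts do not separate them.

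MALAT1 (ENSG00000251562, chromosome 11, 65497688 to 65506516, plus strand, 8829 bases) lies next to NEAT1 and followed it from library to library. It measured 1396, 986 and 658 TMM-scaled CPM in Control 1 to 3, 1321, 863 and 1415 in Scrambled, with 1317, 900 and 1054 in CA2 shRNA. Its 4 high libraries were those of NEAT1 and Control 3 was lowest, over a smaller range, with high-to-low ratios of 2.12, 1.64 and 1.46. Pearson's r between log2 NEAT1 and log2 MALAT1 was 0.993 over the 9 libraries (Spearman's rho 0.983), 0.995 on deviations from the group means, and 0.991 without Control 3 and Scrambled 2. It is a description over libraries that share their depth and composition. NEAT1 moved further than MALAT1: there were 48.7, 31.7 and 24.2 NEAT1 counts per 100 MALAT1 counts in Control, with 46.8, 27.0 and 45.6 in Scrambled and with 40.0, 29.6 and 34.8 in CA2 shRNA.

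**Figure D1:**
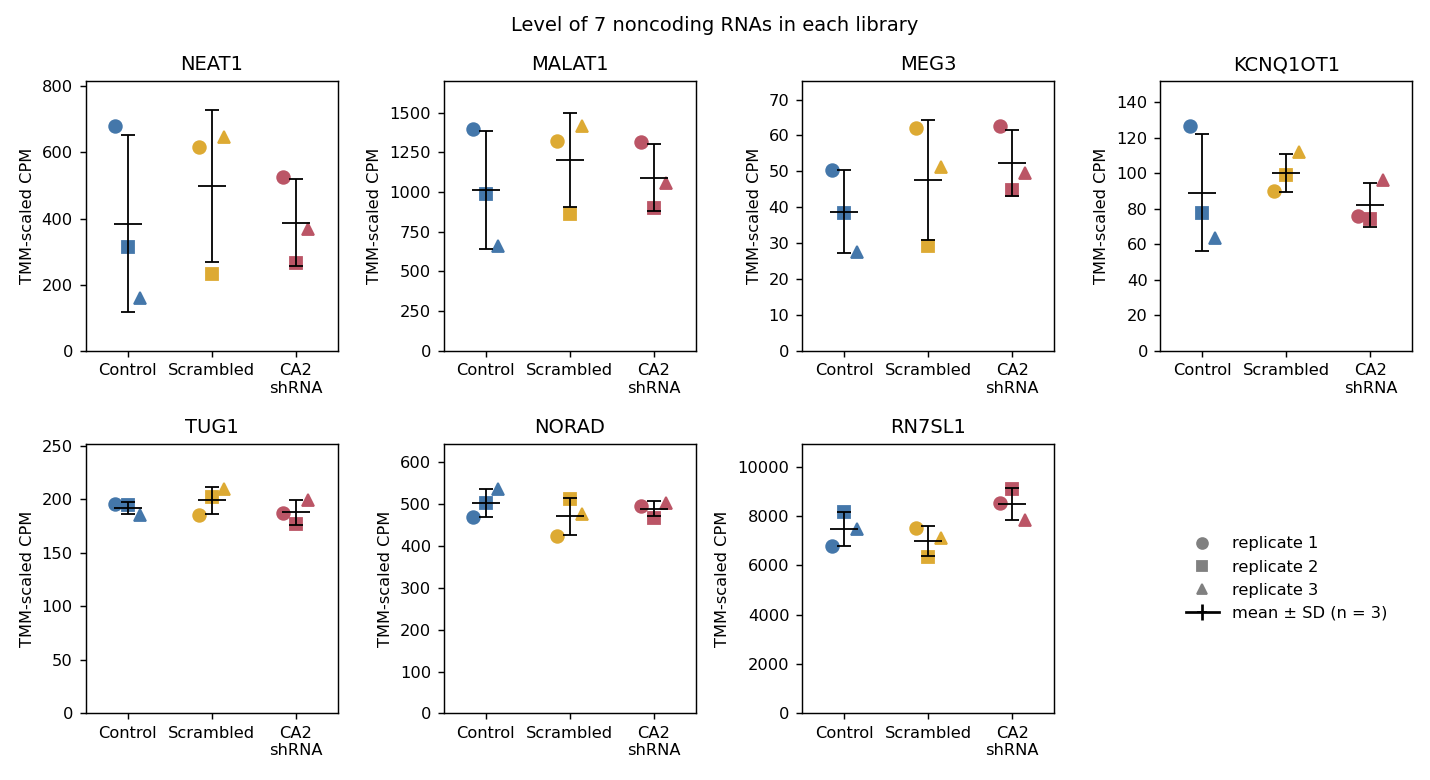
TMM-scaled CPM (y axis, from 0) of the 7 detected noncoding RNAs in Control, Scrambled and CA2 shRNA; points are libraries with the replicate number as symbol, and bars are the mean ± SD of 3 libraries. NEAT1, MALAT1 and MEG3 spread within every group, with NEAT1 between 159 and 680 CPM, whereas TUG1 stays between 177 and 210.

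Set among the 10003 genes with a mean of at least 10 CPM, NEAT1 had the third largest within-group standard deviation, 0.82 on the log2 scale, against a median of 0.088 over these genes. Only MT-RNR2 and MT-RNR1, the mitochondrial ribosomal RNAs, a class that ribosomal RNA removal targets, were more variable (1.80 and 1.61). Their levels did not follow NEAT1: r with NEAT1 was -0.349 for MT-RNR2 and -0.353 for MT-RNR1 over the 9 libraries. MEG3 ranked 14 with 0.44, MALAT1 21 with 0.42 and KCNQ1OT1 90 with 0.33. RN7SL1 (0.12, rank 2516), NORAD (0.10, rank 3843) and TUG1 (0.08, rank 6077) lay much nearer to the median.

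The mitochondrial share of counts moved with the variable nuclear RNAs. Over the 9 libraries its r was 0.868 with NEAT1, 0.883 with MALAT1 and 0.90 with MEG3, but 0.335 with KCNQ1OT1, 0.10 with TUG1 and -0.617 with NORAD. Control 3 and Scrambled 2, with the lowest mitochondrial shares, also had the lowest NEAT1, MALAT1 and MEG3. Log total counts were less related to NEAT1 (r = -0.234), MALAT1 (-0.275) and MEG3 (-0.479). The part of the mitochondrial share in these differences was not tested.

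**Figure D2:**
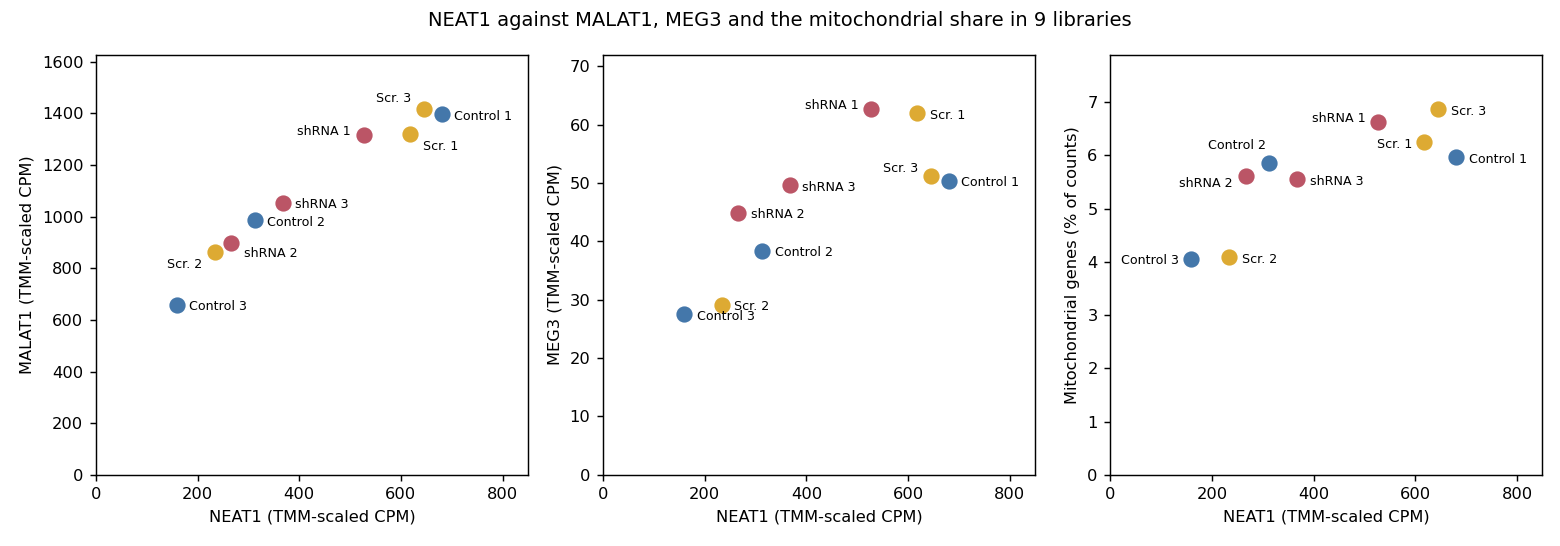
NEAT1 (x axis, TMM-scaled CPM) against MALAT1, MEG3 (TMM-scaled CPM) and the percent of counts on mitochondrial genes in 9 libraries, coloured by group (Control blue, Scrambled, written Scr., yellow, CA2 shRNA red). Control 3 and Scrambled 2 sit at the low end of all 3 panels, at mitochondrial shares of 4.06 and 4.08%.

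Genes whose levels were among the most like NEAT1 over the 9 libraries, by Pearson's r of log2 CPM among genes of at least 10 CPM, were MALAT1 (0.993), NOXA1 (0.988), MIRLET7BHG and SNHG3 (0.984 each), CEP72 (0.982), DIP2A (0.981), OSBPL7 (0.980), COL16A1 (0.977) and THUMPD3-AS1 (0.975). MIRLET7BHG, SNHG3 and THUMPD3-AS1 are themselves noncoding RNAs, the first a microRNA host gene and the second a small nucleolar RNA host gene. MIRLET7BHG measured 67.6, 50.3 and 35.4 TMM-scaled CPM in Control 1 to 3, 66.4, 40.6 and 66.0 in Scrambled, with 54.9, 44.8 and 52.0 in CA2 shRNA. Its high and low libraries were those of NEAT1, over a narrower range. The lowest values were those of FH (-0.955), PHYH (-0.950), SRP14 (-0.944), TMEM38B (-0.940) and VCL (-0.937). FH is fumarate hydratase, VCL is vinculin of focal adhesions, and SRP14 binds the Alu domain of 7SL in the signal recognition particle. SRP14 lay between 97.3 and 113 TMM-scaled CPM and was highest in Scrambled 2 and Control 3. In all, 130 of 10002 genes had r above 0.9 with NEAT1 and 16 had r below -0.9. These lists were picked as extremes of many genes and carry no test.

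MEG3 (ENSG00000214548, chromosome 14, 100779410 to 100861031, plus strand, 7 merged exons of 23224 bases) was lowest in the libraries where NEAT1 was lowest. It measured 50.4, 38.4 and 27.5 TMM-scaled CPM in Control 1 to 3, 62.0, 29.2 and 51.3 in Scrambled, with 62.6, 44.9 and 49.6 in CA2 shRNA. Control 3 and Scrambled 2 were low and CA2 shRNA 1 and Scrambled 1 high, and all groups overlapped. Its r with NEAT1 was 0.871 over 9 libraries and 0.681 without Control 3 and Scrambled 2. The genes most like MEG3 were DDX39B (0.995), which encodes an RNA helicase of splicing and export, CLK2 (0.987), a kinase of splicing factors, and ARFRP1 (0.987). DDX39B ranged from 49.3 to 103 TMM-scaled CPM.

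KCNQ1OT1 (ENSG00000269821, chromosome 11, 2608328 to 2699994, minus strand, 91667 bases) followed NEAT1 less closely. Its level was 126, 77.4 and 63.3 TMM-scaled CPM in Control 1 to 3, 90.1, 98.8 and 112 in Scrambled, with 75.7, 74.2 and 96.4 in CA2 shRNA. Control 1 was highest and Control 3 lowest, while Scrambled 2, low for NEAT1, was in the middle of its group. Its r with NEAT1 was 0.676, and the most like genes were ANKRD36C (0.964), ECHDC2 (0.956) and DIS3L2 (0.944). KCNQ1OT1 is antisense to KCNQ1 and lies within the span of that gene (2444684 to 2849105). Of its bases, 121 overlap a KCNQ1 exon, and KCNQ1 held 5 to 34 counts a library. These values do not bear on reads from KCNQ1 introns, and the strand setting of the counts is not given. The part of such reads in the KCNQ1OT1 count was not tested.

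TUG1 (ENSG00000253352, chromosome 22, 30969245 to 30979395, plus strand, 10151 bases) was the steadiest of the long RNAs. It measured 196, 195 and 185 TMM-scaled CPM in Control 1 to 3, 185, 202 and 210 in Scrambled, with 187, 177 and 199.6 in CA2 shRNA. No library stood apart, and the high-to-low ratio within a group was at most 1.13. The most like genes were AGA (0.946), a lysosomal enzyme, ZNF83 (0.918) and ZNF280C (0.909).

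NORAD (ENSG00000260032, chromosome 20, 36045618 to 36051018, minus strand, 5401 bases) was also steady, and its low and high libraries were placed differently from those of NEAT1. It measured 470, 503 and 537 TMM-scaled CPM in Control 1 to 3, 425, 513 and 476 in Scrambled, with 497, 468 and 503 in CA2 shRNA. Control 3 and Scrambled 2, the lowest for NEAT1, were the highest for NORAD, and the r between both was -0.703, or -0.420 without those libraries. There were 68.7 NORAD counts per 100 NEAT1 counts in Scrambled 1 and 337 in Control 3. The genes most like NORAD were IPO7 (0.989), a nuclear import factor, CPSF2 (0.982), of the cleavage and polyadenylation complex, and ZNF639 (0.980). Of the 50-base stretches of NORAD, 30.3% also occurred in a transcript of another gene, against 0.624% for MALAT1, 1.43% for MEG3, 1.56% for NEAT1, 1.81% for KCNQ1OT1 and 5.98% for TUG1.

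RN7SL1 (ENSG00000276168, chromosome 14, 49586580 to 49586878, plus strand, 299 bases) held most of the counts of the 9 RNAs. It measured 6765, 8155 and 7486 TMM-scaled CPM in Control 1 to 3, 7517, 6327 and 7109 in Scrambled, with 8527, 9102 and 7833 in CA2 shRNA. Every CA2 shRNA library lay above every Scrambled library, and the CA2 shRNA and Control ranges overlapped. RN7SL3, the other copy with counts, had 0.269 to 0.347 counts per 100 RN7SL1 counts in all libraries. Log total counts had an r of -0.652 with RN7SL1, and the 2 libraries highest for RN7SL1, CA2 shRNA 2 and 1, had the smallest totals, 16994368 and 19960657. The part of the totals in its differences was not tested. The genes most like RN7SL1 were SRSF7 (0.978), a splicing factor, PPP1R16A (0.965) and PGM1 (0.954), a phosphoglucomutase.

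Per kilobase of exon, RN7SL1 was by far the most abundant of the detected RNAs, with a median of 25141 TMM-scaled RPKM (CPM per kilobase of exon) and a range of 21161 to 30442. MALAT1 followed with a median of 119 RPKM (74.5 to 160) and NORAD with 91.9 (78.6 to 99.5). Their ranges overlapped, and in Control 3 NORAD at 99.5 RPKM stood above MALAT1 at 74.5. TUG1 had a median of 19.2 RPKM (17.4 to 20.7) and NEAT1 16.1 (6.99 to 29.9), so that TUG1 lay within the range of NEAT1. MEG3, with 2.14 RPKM (1.18 to 2.70), and KCNQ1OT1, with 0.983 (0.691 to 1.38), were lowest and overlapped at their edges. These lengths are those of the merged exons, so a gene of which only a short isoform is made is understated.

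**Figure D3:**
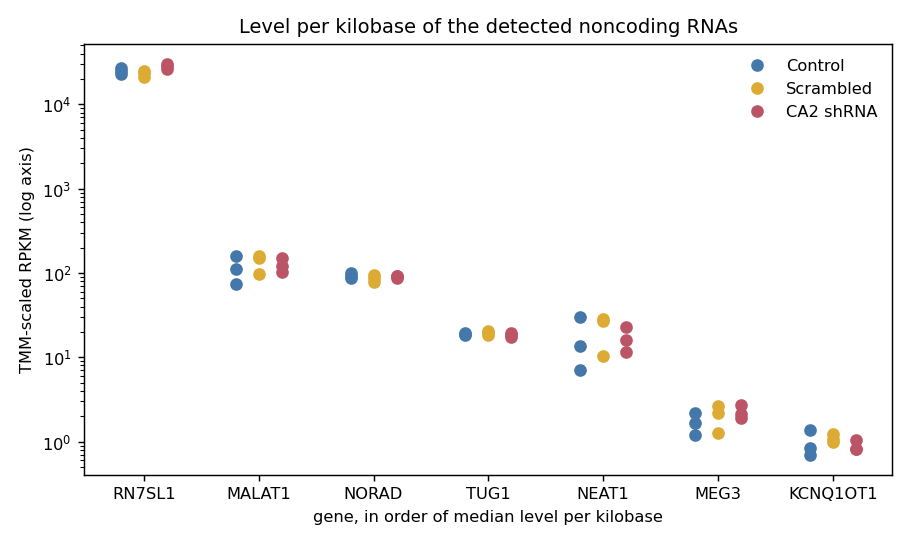
TMM-scaled RPKM (y axis, log scale) of the 7 detected RNAs in order of their median; each point is a library, coloured by group. RN7SL1 stands above 21161 RPKM, and TUG1 and NEAT1, and MEG3 and KCNQ1OT1, overlap.

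RN7SK (ENSG00000283293, chromosome 6, 52995621 to 52995948, plus strand, 328 bases) and RMRP (ENSG00000277027, chromosome 9, 35657754 to 35658017, minus strand, 264 bases) were listed at 0 in all 9 libraries. Both records lie wholly inside a second record on the same strand: ENSG00000202198 (52995620 to 52995950) covers all of RN7SK, and ENSG00000269900 (35657751 to 35658018) all of RMRP. These 2 covering records were also at 0, whereas others, such as that over RN7SL2 with 4 to 34 counts a library, were not. Contained records were at 0 throughout the table. All 852 single-exon records that lie inside an exon of another record on the same strand were at 0 in all libraries, as were all 447 inside one on the opposite strand only, against 39.5% of the 19749 that overlap no other record.

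Among 29 small structural RNAs, with RN7SK and RMRP counted in, 9 were covered by another record over more than 90% of their length. Of those 9, 8 were at 0 in every library, RN7SK and RMRP among them, and RNU11 had 1 count. Of the other 20, 2 were at 0: RNU2-1, which no other record overlaps, and VTRNA2-1, which is covered over 78.9% of its length. RN7SL2 and RPPH1, the RNA of RNase P, are also among the 8 and were covered wholly. These zeros therefore do not measure 7SK or RMRP RNA, and no limit on their abundance is given. The long RNAs were covered to 2.13% (NEAT1), 6.21% (MALAT1), 2.58% (MEG3), 1.23% (KCNQ1OT1) and 14.4% (TUG1) of their bases, and RN7SL1 and NORAD not at all.

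**Figure D4:**
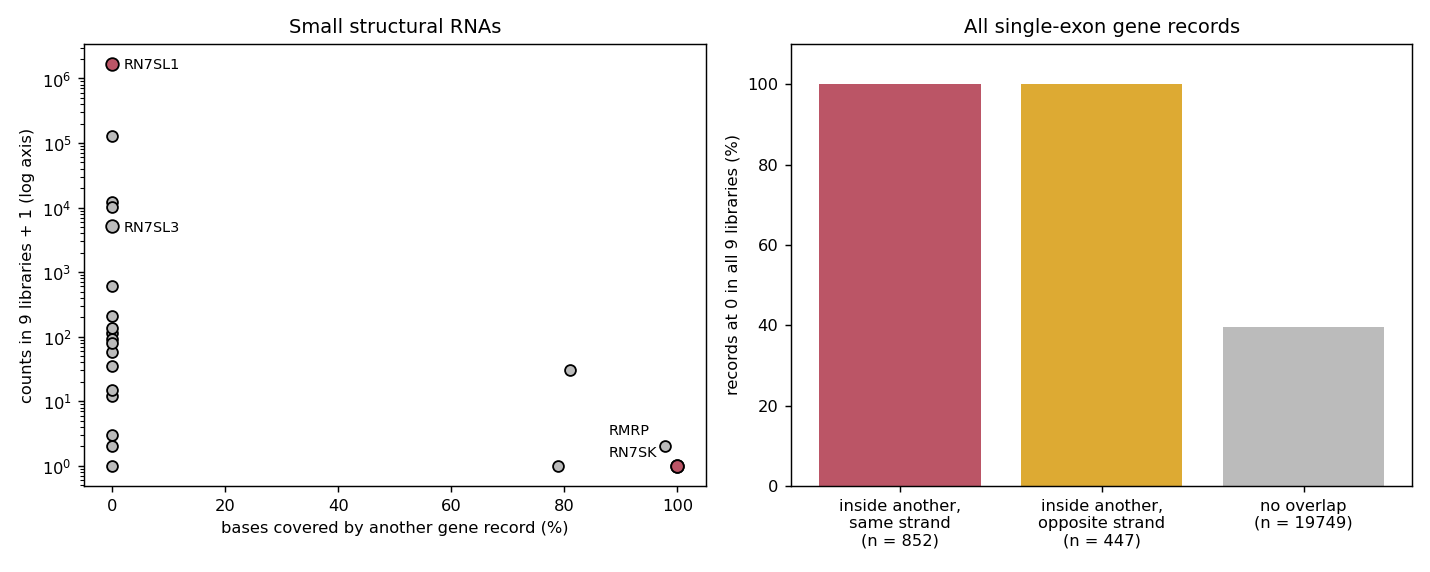
Left, counts over 9 libraries plus 1 (y axis, log scale) of 29 small structural RNA records against the percent of their bases covered by another record, with RN7SL1, RN7SK and RMRP in red; right, percent of single-exon records at 0 in all 9 libraries by their overlap with other records. All 852 and 447 contained records are at 0, and so are RN7SK and RMRP, which share 1 point.

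Of the 7 tested RNAs, 1 passed the threshold between CA2 shRNA and Scrambled, where 16.9% of all 19812 tested genes did (8.02% higher, 8.88% lower). RN7SL1 rose from 6984 ± 605 to 8487 ± 635 TMM-scaled CPM (mean ± SD, n = 3 each), a log2 change of 0.28 with a standard error of 0.079 (edgeR quasi-likelihood test with Benjamini-Hochberg adjustment, adjusted p = 0.0224). It was also the only one whose groups did not overlap, as in 32.3% of tested genes. The call was lost without Scrambled 3 (adjusted p = 0.0681) and without CA2 shRNA 2 (0.162), and over 20 alternatives the adjusted p ranged from 1.91e-07 to 0.162. Since its copies share sequence, the rise refers to reads assigned to this record. RN7SL3, with a mean of 23.7 TMM-scaled CPM in Scrambled and 24.3 in CA2 shRNA, did not pass.

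The other 6 did not pass, and their intervals differ widely in width. NEAT1 differed by -0.37 on the log2 scale between CA2 shRNA and Scrambled (95% interval -1.93 to 1.19, adjusted p = 0.769), MALAT1 by -0.14 (-0.93 to 0.66, adjusted p = 0.838), MEG3 by 0.15 (-0.67 to 0.97, adjusted p = 0.833) and KCNQ1OT1 by -0.28 (-0.93 to 0.36, adjusted p = 0.558). For these RNAs changes in either direction lie inside the interval. TUG1 differed by -0.08 (-0.21 to 0.04, adjusted p = 0.393) and NORAD by 0.05 (-0.09 to 0.20, adjusted p = 0.655). The intervals of TUG1 and NORAD are narrower but also hold changes in either direction. The median over the 7 was -0.08, beside -0.03 over all tested genes.

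Against Control, none of the 7 passed, where 14.7% of tested genes did (6.41% higher, 8.26% lower). RN7SL1 was 7469 ± 695 TMM-scaled CPM in Control and differed by 0.18 in CA2 shRNA (95% interval 0.02 to 0.35, unadjusted p = 0.0338, adjusted p = 0.146), the only one of the 7 with an unadjusted p under 0.05. With no filter on low counts or without Scrambled 2 it passed (adjusted p 0.00454 and 0.0485), and over 20 alternatives its adjusted p reached 0.524. By DESeq2 none of the 7 passed against Control either. In none of the 7 were the groups separate, as they were in 33% of tested genes. NEAT1 differed by 0.01 (-1.55 to 1.57), MALAT1 by 0.11 (-0.69 to 0.90), MEG3 by 0.44 (-0.38 to 1.27), KCNQ1OT1 by -0.11 (-0.76 to 0.54), TUG1 by -0.03 (-0.16 to 0.10) and NORAD by -0.04 (-0.18 to 0.10). The median over the 7 was 0.01, beside -0.0048 over all tested genes. Both comparisons share the CA2 shRNA libraries and are given side by side only.

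Between Scrambled and Control, none of the 7 passed and their groups all overlapped, while 0% of tested genes passed and 6.81% had groups that did not overlap. Over all genes edgeR gave 0 calls, with 550 at an unadjusted p under 0.05, and DESeq2 gave 1. NEAT1 differed by 0.38 (-1.18 to 1.94), MALAT1 by 0.24 (-0.55 to 1.04), MEG3 by 0.30 (-0.53 to 1.12), KCNQ1OT1 by 0.17 (-0.47 to 0.82), TUG1 by 0.05 (-0.07 to 0.18), NORAD by -0.10 (-0.24 to 0.05) and RN7SL1 by -0.10 (-0.26 to 0.07). None of the 7 had an unadjusted p under 0.05 here. The median over the 7 was 0.17, beside 0.0017 over all tested genes.

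**Figure D5:**
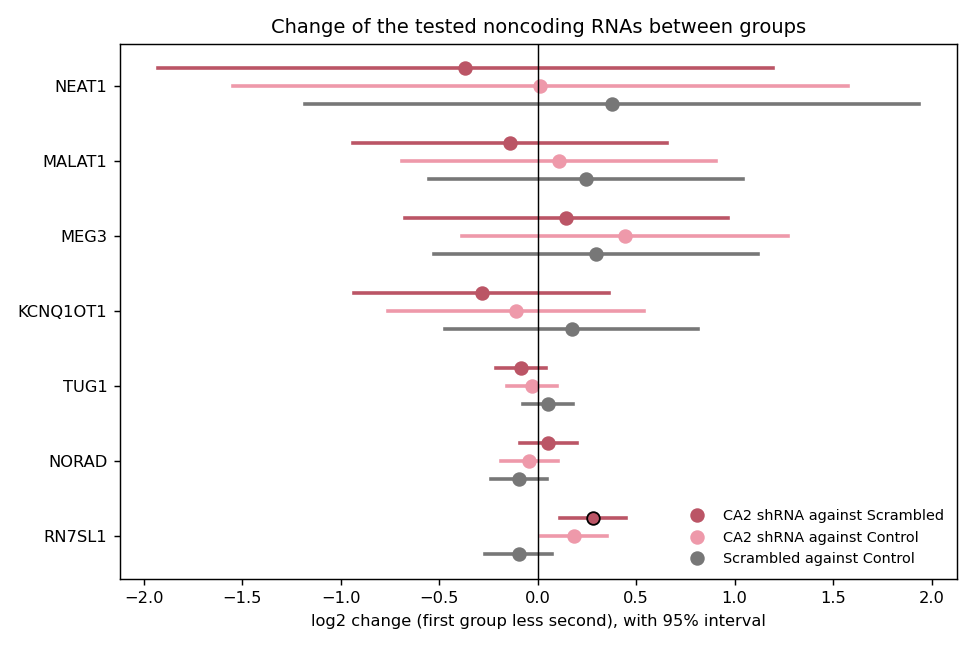
Log2 change (x axis) of the 7 tested RNAs with 95% intervals in the 3 comparisons of groups named in the legend; a black rim marks an adjusted p under 0.05. RN7SL1 against Scrambled is the only rimmed point, and the NEAT1 interval against Scrambled runs from -1.93 to 1.19.

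The proteins that work with these RNAs, the genes beside them on the chromosome, regulators of NEAT1 transcription and other noncoding RNAs were read from lists. The lists were chosen for the roles of their genes. The 145 tested genes include 23 other long noncoding RNAs, 9 other small structural RNAs and 9 regulators of NEAT1 transcription. Of the other noncoding RNAs, 1 long RNA passed against Scrambled, and 1 long and 1 small RNA against Control. Of 145 tested genes on the lists, 31 passed against Scrambled (20 rose, 11 fell, 21.4%, beside 16.9% of all tested genes) and 29 against Control (17 rose, 12 fell, 20%, beside 14.7%), and none passed between Scrambled and Control. Without Scrambled 3 the count against Scrambled was 15 and without CA2 shRNA 1 it was 19. The count against Control was 17 without Control 2, 19 without Control 3 and 15 without CA2 shRNA 2. Under all 20 alternatives, 11 of the 31 and 10 of the 29 kept their call. In all following lists the first log2 change is against Scrambled and the second against Control.

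Among 10 genes of the 7SK particle and P-TEFb, 3 rose and none fell against Scrambled, and 3 rose and 2 fell against Control. HEXIM1, the 7SK-dependent inhibitor of P-TEFb, rose from 72.6 ± 1.93 TMM-scaled CPM in Scrambled and 72.9 ± 1.19 in Control to 102 ± 8.70 in CA2 shRNA (log2 change 0.49 and 0.48, edgeR adjusted p 3.36e-05 and 3.82e-05), and passed in all 20 alternatives. MEPCE, which caps 7SK, rose by 0.26 in both (adjusted p 0.00625 and 0.00738), a call lost without Scrambled 3 in the first and without CA2 shRNA 2 in the second. CCNT1, the cyclin of P-TEFb, rose by 0.20 and 0.21, and passed in 14 and 16 of 20 alternatives. LARP7, which binds the 3′ end of 7SK, fell against Control (-0.28), in 10 of 20. Against Scrambled LARP7 differed by -0.26 (adjusted p = 0.0517). The medians of the list were -0.06 and 0.05.

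Of 8 proteins of the signal recognition particle and its receptor, 3 rose against Scrambled, 1 rose against Control and none fell. SRPRB, the membrane-anchored receptor subunit, rose from 31.1 ± 2.16 in Scrambled and 33.8 ± 1.46 in Control to 42.2 ± 2.44 TMM-scaled CPM (0.44 and 0.32, adjusted p 0.000468 and 0.00729 by edgeR). The first call held in all 20 alternatives, and the second was lost without Control 2 and without CA2 shRNA 2. SRP54, which binds the signal sequence, and SRPRA, the other receptor subunit, rose against Scrambled (0.25 and 0.21) and differed from Control by 0.21 (adjusted p = 0.0538) and 0.18 (adjusted p = 0.0676). Against Scrambled, both lost the call without Scrambled 3 or CA2 shRNA 2, SRP54 also without Scrambled 1 and SRPRA without Control 2 and with upper-quartile factors. The medians of the list were 0.13 and 0.04.

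Of 11 tested subunits of RNase MRP and RNase P, 1 rose and 2 fell against Scrambled, and 2 fell against Control. RPP14 fell from 12.8 ± 0.539 and 12.1 ± 0.301 to 7.06 ± 0.464 TMM-scaled CPM (-0.85 and -0.77, edgeR adjusted p 1.04e-05 and 3.2e-05). POP4 fell from 73.9 ± 2.35 and 74.3 ± 1.51 to 59.9 ± 3.13 (-0.30 and -0.31, adjusted p 0.00197 and 0.00153). Both kept the call in all 20 alternatives of each comparison. POP7 rose against Scrambled by 0.20, in 11 of 20 alternatives. The medians of the list were 0.11 and 0.03.

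Of 19 paraspeckle proteins, 3 rose and 1 fell in both comparisons. FAM98A rose from 37.5 ± 4.63 and 40.7 ± 2.80 to 50.6 ± 0.914 TMM-scaled CPM (0.43 and 0.31, edgeR adjusted p 0.00138 and 0.016), the second call being lost without Control 1, Control 2 or CA2 shRNA 2. HNRNPH3, a splicing regulator, fell from 82.2 ± 4.66 and 87.5 ± 3.81 to 66.7 ± 3.20 (-0.30 and -0.39, adjusted p 0.00308 and 0.000321) and kept both calls in all alternatives. PSPC1, a partner of NONO and SFPQ on NEAT1, rose by 0.27 in both and lost the calls without CA2 shRNA 2, without Scrambled 3 in the first and without Control 2 in the second. TAF15 rose by 0.18 and 0.19 and passed in 9 and 11 of 20 alternatives. NONO and SFPQ, the core proteins, did not pass in either comparison. The medians of the list were 0.07 and 0.06.

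Of 20 nuclear speckle proteins, 2 fell against Scrambled, and 1 rose and 1 fell against Control. SRRM1, a splicing coactivator, fell from 216 ± 7.99 and 215 ± 2.12 to 166 ± 2.61 TMM-scaled CPM (-0.38 and -0.37, edgeR adjusted p 4.08e-05 and 5.86e-05), in all alternatives. SRRM2, a scaffold of speckles, fell against Scrambled by 0.29 on the log2 scale (adjusted p = 0.00529), which it did not do without CA2 shRNA 1, and differed from Control by -0.20 (adjusted p = 0.0563). U2AF2, a splice-site binding factor, rose against Control by 0.19 and passed in 12 of 20 alternatives. The medians of the list were 0.03 and 0.00028.

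Of 8 tested NORAD partners, 2 rose against Scrambled, 1 rose against Control and none fell. TOP1, a topoisomerase, rose from 156 ± 8.73 and 158 ± 6.07 to 189.5 ± 6.19 TMM-scaled CPM (0.28 and 0.26, edgeR adjusted p 0.00209 and 0.00369), in all alternatives. PRPF19, a spliceosome ubiquitin ligase, rose against Scrambled by 0.20, a call lost without Control 2, Scrambled 3 or CA2 shRNA 2. The medians of the list were 0.05 and 0.01.

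Of 6 tested neighbours of MEG3 on its chromosome, 1 rose and 1 fell in both comparisons. MEG8, another maternally expressed noncoding RNA, rose from 4.79 ± 0.576 and 4.75 ± 0.427 to 6.83 ± 0.862 TMM-scaled CPM (0.50 and 0.52, edgeR adjusted p 0.0238 and 0.0212), and passed in 17 and 16 of 20 alternatives. BEGAIN fell by 0.32 and by 0.30 on the log2 scale and passed in 17 and 15 of 20. All of these losses came from leaving out 1 library, and in both comparisons MEG8 lost the call without CA2 shRNA 1 or CA2 shRNA 2 and BEGAIN without CA2 shRNA 1 or CA2 shRNA 3.

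Of 9 tested neighbours of KCNQ1OT1 on its chromosome, 1 rose and 2 fell in both comparisons. CDKN1C, a cell-cycle inhibitor that KCNQ1OT1 silences on the paternal chromosome, fell from 6.26 ± 0.746 and 5.90 ± 0.665 to 4.05 ± 0.464 TMM-scaled CPM (-0.62 and -0.54, edgeR adjusted p 0.00753 and 0.0203). The first call was lost without Scrambled 3, and the second without Control 3, CA2 shRNA 1 or CA2 shRNA 2. IGF2, a growth factor of the adjoining cluster, fell from 26.1 ± 1.53 and 28.5 ± 1.43 to 20.4 ± 2.40 (-0.36 and -0.49, adjusted p 0.00848 and 0.000849), the first call being lost without CA2 shRNA 1 or CA2 shRNA 3. PHLDA2, of the same cluster as CDKN1C, rose from 79.4 ± 5.80 and 80.5 ± 3.99 to 103 ± 3.64 (0.37 and 0.35, adjusted p 0.000561 and 0.00101), in all alternatives. The medians were 0.31 and 0.39 over the neighbours of MEG3 and -0.11 and -0.09 over those of KCNQ1OT1.

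Of 13 tested genes beside NEAT1 and MALAT1, 4 rose and 1 fell against Scrambled, and 3 rose and 1 fell against Control. FRMD8 rose from 44.9 ± 3.0 and 45.6 ± 2.13 to 57.4 ± 2.01 TMM-scaled CPM (0.35 and 0.33, edgeR adjusted p 0.00143 and 0.00267), in all alternatives. SLC25A45, a mitochondrial carrier, rose by 0.44 and 0.42 and DPF2, a chromatin remodelling subunit, by 0.20 in both, passing in 19 and 17, and in 18 and 17, of 20 alternatives. TIGD3 rose against Scrambled by 0.53, in 9 of 20. Among 9 regulators of NEAT1 transcription, EPAS1, a hypoxia-inducible factor, rose from 112 ± 5.13 and 112 ± 5.26 to 138 ± 9.47 (0.31 and 0.30, adjusted p 0.00212 and 0.00246), in all alternatives. Its partner ARNT rose by 0.21 and 0.23, and HIF1A fell by 0.19 and by 0.24, passing in 16 and 18, and in 6 and 16, of 20. The medians were 0.14 in both comparisons for the chromosomal neighbours and 0.10 in both for the regulators.

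Other noncoding RNAs mostly did not pass. Of 23 tested long noncoding RNAs, CYTOR fell against Scrambled (-0.30, edgeR adjusted p = 0.0356, in 13 of 20 alternatives) and DLEU2 against Control (-0.54, adjusted p = 0.0456, in 9 of 20), and none rose. Of 9 tested small structural RNAs, none passed against Scrambled. RNU6-1, a U6 spliceosomal RNA, was higher than in Control by 1.24 (adjusted p = 0.0477), on 5 to 29 counts a library and in 10 of 18 alternatives. Its mean was 0.302 TMM-scaled CPM in Control, 0.757 in Scrambled and 0.747 in CA2 shRNA, so CA2 shRNA was not above Scrambled. The medians were -0.12 and -0.08 for the long RNAs and -0.03 and 0.01 for the small ones.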

How the data were processed

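RNA from 9 libraries was analysed, 3 in each of Control, Scrambled and CA2 shRNA, grouped by the treatment in the labels. Per the labels' protocols, total RNA was extracted with RNeasy Mini and treated with QIAGEN FastSelect, which removes ribosomal RNA. The authors deposited for each library the read count, CPM and RPKM of 60671 genes, per the file headers. The deposited counts are whole numbers that were not normalized. The deposited CPM equals the count over the library total on the usual CPM scale, and the deposited RPKM equals CPM per kilobase of summed exons, both on recomputation. Per the submitters' processing notes, the tools were STAR 2.5.1a, featureCounts 1.4.6-p5 from the Subread package and bcl2fastq, with the GRCh38 build. Which annotation release and strand setting were used, and how multi-mapping or overlapping reads were handled, is not given in the sources used here.

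Counts of 19812 genes kept by filterByExpr were scaled with TMM factors (0.977 to 1.01) and tested with edgeR 4.0.16 (R 4.3.3), by the quasi-likelihood F test with robust fitting in 1 model of all 9 libraries with a term per group, 6 residual degrees of freedom and a biological coefficient of variation of 7.94%. P-values were Benjamini-Hochberg adjusted over all tested genes, with a threshold of 0.05. The test was run on simulated counts of independent libraries, which does not cover likeness between libraries of different groups. Printed levels are TMM-scaled CPM, or RPKM from them. Correlations used log2 CPM with a prior count of 2. No pair of libraries within a group agreed within sampling noise (chi-square per gene at least 4.64). Across groups, Control 3 with Scrambled 2 (3.70) and Control 1 with Scrambled 3 (3.96) were closer than any pair within a group. Scrambled 2 lay at 19.6 and 17.7 from Scrambled 1 and 3, and Control 3 at 14.4 and 8.21 from Control 1 and 2. Symbols were found for 60401 identifiers in a reference table. Transcript sequences came from GENCODE 29. Alternatives were 3 other scalings, the totals without the noncoding and mitochondrial genes, other filters, DESeq2 1.42.0, other settings of the fit, a replicate block, and libraries left out, 20 in all.

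The 9 RNAs, the gene lists, the markers and the tests were chosen with earlier results of these data known. Named genes were all 9 RNAs, up to 4 genes with the largest change among those past the threshold in each list, and for likeness the 10 highest and 5 lowest for NEAT1 and the 3 highest for each other tested RNA, among genes of at least 10 CPM. KCNQ1, NONO, SFPQ, RPPH1, RNU11, RNU2-1, VTRNA2-1, MT-RNR1 and MT-RNR2 were named after their values were seen. A few genes that this rule or the lists take are not reported here.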

Additional observations from a re-analysis of the deposited data

How the results depend on the processing

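Under 20 alternatives, 19 of the 21 changes of the noncoding RNAs between groups never passed the threshold, and 17 of 420 alternative values turned in sign, in 8 of the 21. The count of noncoding RNAs past the threshold against Scrambled ranged over 0 to 1 with 1 library left out, and that against Control over 0 to 1, with a value of 1 also with no filter on low counts. The lists of partners, neighbours, NEAT1 regulators and other noncoding RNAs were also counted together. With 1 library left out, their genes past the threshold ranged over 15 to 34 against Scrambled and 15 to 38 against Control.

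Signs turned without Control 3 and Scrambled 2 for MEG3 against Scrambled (-0.0865), for NEAT1 (-0.33), MALAT1 (-0.10) and NORAD (0.0368) against Control, and for KCNQ1OT1 in Scrambled against Control (-0.0101). With only the 2 groups compared, NEAT1 against Control was -0.0043. With 1 library left out, the log2 change against Control ranged over -0.36 to 0.72 for NEAT1, -0.13 to 0.41 for MALAT1, -0.31 to 0.23 for KCNQ1OT1, -0.0549 to 0.0072 for TUG1 and -0.0889 to 0.0080 for NORAD. Against Scrambled it ranged over -0.0842 to 0.37 for MEG3 and -0.0257 to 0.14 for NORAD, and between Scrambled and Control over -0.0260 to 0.51 for KCNQ1OT1. The cause was not tested.

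The replicate numbers did not pair the libraries: of 9 pairs with the same number, r of the deviations from group means lay between -0.185 and 0.105 and exceeded 0.1 in 1. Among pairs of unlike number across groups, the largest r was 0.301, between Scrambled 2 and Control 3. With the replicate block RN7SL1 differed by 0.28 against Scrambled (adjusted p = 0.0394) and did not pass against Control (adjusted p = 0.187). Each of the 7 tested RNAs had at least 744 counts in every library, which limits counting error. For the steadiest, TUG1, the spread within Control was a CV of 2.97% on a mean of 4989 counts, so counting error is part of its spread.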
